A study of Mus musculus with 8 samples.

Results

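The genes described here are 9 genes of the primitive streak, *T*, *Eomes*, *Mixl1*, *Gsc*, *Evx1*, *Apela*, *Cer1*, *Lhx1* and *Mesp1*, out of 54281 genes measured by RNA-seq in mouse epiblast-like cells (EpiLCs). They were taken by gene symbol with no cut on a measured value, and none of the symbols was repeated. The choice of genes, with *Apela* to be set against low streak factors, was made with earlier results of these data known. The libraries come from 4 *Tet1* KO lines and 4 WT lines, with 1 library per line. All 8 are male embryonic stem cell lines from blastocysts of the (B6 × 129S6)F1 *Tet1* tm1Koh stock, an insertion allele that the KO lines carry, and each line is 1 derivation, so the spread within a group mixes line, culture and library. Naive cells of every line were converted for 2 days in N2B27 with KOSR (1%) and bFGF (12 ng/ml) and without Activin A, and then harvested. Libraries are called by their titles, although the cell line label of WT12 reads WT9 and that of WT17 reads WT12, all of them WT names. The column names of the deposited tables have the ending b1 for KO1, KO9, WT7 and WT17, and the ending b2 for WT12, WT34, KO15 and KO25. What this suffix stands for is not given in the sources used here, and the sets are called b1 and b2.

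The primitive streak is the strip of the posterior epiblast where cells leave the epithelium at gastrulation and become mesoderm and definitive endoderm. Nodal signals, carried in the cell by SMAD2 and SMAD3 with FOXH1, and Wnt signals, carried by β-catenin with TCF/LEF factors, switch on its T-box and homeobox genes, and Lefty, Cerberus and Dickkopf proteins hold these signals back in the anterior. EpiLCs are a model of the epiblast before that step. *Apela* codes for a short secreted peptide that binds the apelin receptor and is known from pluripotent cells as well as from early mesendoderm, whereas most of the others code for transcription factors.

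Rounded counts summed to between 13916400 and 23680640 per library, and *Tet1* was at 47.9 ± 7.47 CPM (counts scaled to library size after TMM) in KO and 750 ± 132 CPM in WT lines (SD, n = 4 each). In TPM, a level per transcript length, *Tet1* was at 26.8 ± 5.43 in KO and 81.2 ± 14.2 in WT lines, a smaller gap. All 7 EpiLC markers had a mean of at least 1 TPM, with *Pou5f1* at 412 to 512 TPM, *Dnmt3b* at 218 to 270 TPM and *Fgf5* at 7.48 to 18.8 TPM. Of 7 naive markers 5 did so too, among them *Zfp42* at 8.29 to 19.0 TPM and *Esrrb* at 3.31 to 11.5 TPM, levels like those of *Fgf5*. The naive markers *Klf4* and *Tbx3* had means under 1 TPM. Of 8 visceral endoderm markers none reached a mean of 1 TPM and *Ttr* was at 0 in all libraries. Of 7 feeder fibroblast markers 2 reached a mean of 1 TPM, *Thy1* (15.6 TPM) and *Dcn* (1.66 TPM). The collagen genes *Col1a1*, *Col1a2* and *Col3a1* had means of 0.227, 0.109 and 0.185 TPM, and *Postn* was at 0.

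*Apela* stood far above the other streak genes in every library. Of the KO lines it was at 22.8 TPM in KO1 and 26.1 in KO9 (b1), and at 35.1 in KO15 and 42.0 in KO25 (b2). Of the WT lines it was at 16.1 TPM in WT7 and 13.8 in WT17 (b1), and at 17.5 in WT12 and 35.3 in WT34 (b2). These levels rest on 441 to 1092 counts per library. The mean of the 8 libraries, 26.1 TPM, was above the mean of 93.6% of all genes in the table and of 80.6% of the genes with enough counts to be tested. *Apela* lies on chr8:65028417-65037336 (GRCm38, minus strand, 4 exons in the longest transcript). A non-coding gene of the same strand, *Gm45886*, overlaps it and had 82 to 193 counts per library. In TPM *Gm45886* was above *Apela* in every library, from 17.9 in WT17 to 61.8 in KO25. The division of reads between both genes is therefore uncertain, and so is the TPM of *Apela* and any ratio built on it.

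The 8 other genes together came to 0.890 and 0.897 TPM in KO1 and KO9, to 1.34 and 1.57 TPM in KO15 and KO25, to 0.405 and 0.249 TPM in WT7 and WT17, and to 0.740 and 0.590 TPM in WT12 and WT34. *Apela* exceeded this sum 25.7-, 29.1-, 26.2- and 26.6-fold in the KO lines and 39.7-, 55.2-, 23.6- and 59.9-fold in the WT lines, in the same order. The ratio lay within a narrow band in KO lines and covered a wider one in WT lines, with WT12 below all KO lines and the other WT lines above them. The mean log2 ratio was 5.07 ± 0.53 (SD, n = 8) in TPM. It was 3.36 in CPM, which takes no account of the short *Apela* transcript.

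**Figure D1:**
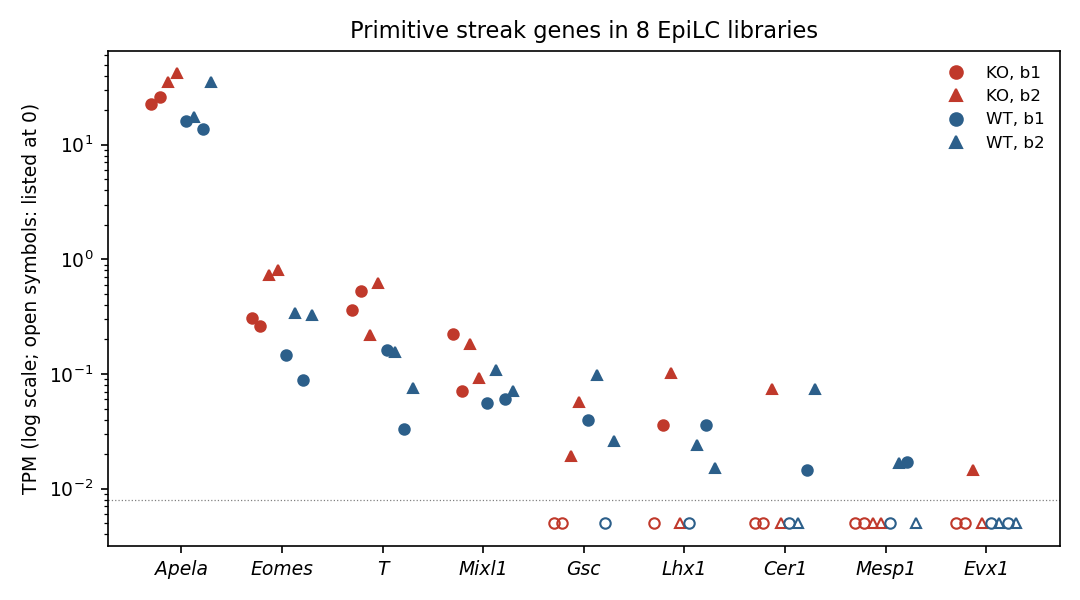
Level of each of the 9 genes in each library, in TPM on a log axis, with KO lines in red, WT lines in blue, b1 libraries as circles and b2 libraries as triangles. Open symbols under the dotted line are libraries where the gene was listed at 0. *Apela* lies between 13.8 and 42.0 TPM, *Eomes*, *T* and *Mixl1* lie under 1 TPM, and *Gsc*, *Lhx1*, *Cer1*, *Mesp1* and *Evx1* hold libraries at 0.

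*Eomes* and *T*, both T-box transcription factors, and *Mixl1*, a paired-type homeobox factor, followed in the order of mean level. *Eomes*, needed for definitive endoderm and for cells to leave the streak, was at 0.306 TPM in KO1, 0.264 in KO9, 0.731 in KO15 and 0.801 in KO25. In WT7 and WT17 it was at 0.147 and 0.0884 TPM, and in WT12 and WT34 at 0.338 and 0.328 TPM. No library reached 1 TPM, and the counts behind these levels were 41 to 113 in KO and 15 to 64 in WT lines. The mean of 0.375 TPM was 6.27 log2 units below *Apela* (SD of the difference 0.59, lower in 8 of 8 libraries, two-sided exact sign-flip permutation test, p = 0.0078125, the smallest that 8 libraries allow, adjusted p = 0.0313 over the 8 neighbouring pairs of the order). The order was taken from the same 8 libraries, so the pairs and their direction were set by the values tested. The contrast of *Apela* with low streak genes was also chosen with earlier results of these data known, so its test adds no support.

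*T*, the brachyury gene and the classical marker of the streak, had a mean of 0.270 TPM from 3 to 21 counts per library. *Mixl1*, which is induced by Nodal in the streak, had a mean of 0.108 TPM and 23 counts in KO1, 7 in KO9, 17 in KO15 and 6 in KO25, against 5 in WT7, 6 in WT17, 12 in WT12 and 5 in WT34. Neither *Eomes* and *T* nor *T* and *Mixl1* differed beyond their spread over libraries (adjusted p = 0.281 and 0.167, exact sign-flip permutation test). *Mixl1* was above *Gsc* in 8 of 8 libraries (adjusted p = 0.0313, same exact test). With 1 library left out no pair of neighbours passed, except without WT17, where 3 did. The smallest p of the test is then larger, and after adjustment fewer than 3 pairs can never pass. These fits therefore cannot show whether a pair rests on 1 library.

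The other 5 genes had 41 counts in all 8 libraries together. *Gsc*, the goosecoid homeobox factor of the anterior streak and organizer, had 12 counts in 5 libraries, and *Lhx1*, a LIM homeobox factor of the node and anterior mesendoderm, had 15 counts in 5 libraries. *Cer1*, the secreted Nodal, BMP and Wnt inhibitor Cerberus, had 10 counts in 3 libraries. *Mesp1*, a basic helix-loop-helix factor of early cardiac mesoderm, and *Evx1*, a homeobox factor of the posterior streak, had 2 counts each.

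These counts were not spread evenly over the libraries. KO15 held 14 of the 17 counts of the KO lines, with 6 of *Lhx1*, 5 of *Cer1*, 2 of *Evx1* and 1 of *Gsc*, whereas KO1 held 0 and KO9 held 1. Among WT lines WT12 held 12 counts, WT34 held 7, WT17 held 3 and WT7 held 2. By suffix the 5 genes had 6 counts in the b1 and 35 in the b2 libraries. *Lhx1* had 0.0248 CPM in b1 (exact 95% Poisson interval 0.00300 to 0.0895) and 0.183 CPM in b2 (0.0974 to 0.313), and *Gsc* had 0.0248 CPM in b1 (0.00300 to 0.0895) and 0.141 CPM in b2 (0.0675 to 0.259), both from summed counts. The intervals of *Lhx1* do not overlap and those of *Gsc* do, but they cover counting error and not the spread between lines. In the edgeR fit of b2 against b1 without a filter on low counts, *Lhx1*, *Gsc* and *Cer1* did not pass (adjusted p = 0.271, 0.433 and 0.292). That fit called 5299 of 35073 genes. *Mesp1* had 0 counts in KO and *Evx1* had 0 in WT lines, where the upper limits were 0.0497 and 0.0476 CPM. From *Gsc* down, no difference between neighbours in the order exceeded the spread over libraries (adjusted p = 0.500 to 0.797, exact sign-flip permutation test).

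The promoter windows of these genes are shown because developmental genes with CpG-rich starts are known targets of Polycomb and TET1, so that the level of each gene can be read beside its CpG content. Each window runs from 250 bases before to 50 bases after the start of the RefSeq transcript (GRCm38.p6, strand of the gene, 5′ to 3′), and capitals mark CpG dinucleotides. The windows are chr8:65037287-65037586 (minus) for *Apela*, chr9:118477939-118478238 (plus) for *Eomes*, chr17:8434173-8434472 (plus) for *T* and chr11:84525485-84525784 (minus) for *Lhx1*, which had the most CpGs.
Apela: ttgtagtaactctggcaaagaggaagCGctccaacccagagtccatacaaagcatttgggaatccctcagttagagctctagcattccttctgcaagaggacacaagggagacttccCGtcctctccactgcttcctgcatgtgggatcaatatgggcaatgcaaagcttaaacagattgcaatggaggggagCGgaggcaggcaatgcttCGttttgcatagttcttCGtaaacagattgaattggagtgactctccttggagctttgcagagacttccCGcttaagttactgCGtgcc
Eomes: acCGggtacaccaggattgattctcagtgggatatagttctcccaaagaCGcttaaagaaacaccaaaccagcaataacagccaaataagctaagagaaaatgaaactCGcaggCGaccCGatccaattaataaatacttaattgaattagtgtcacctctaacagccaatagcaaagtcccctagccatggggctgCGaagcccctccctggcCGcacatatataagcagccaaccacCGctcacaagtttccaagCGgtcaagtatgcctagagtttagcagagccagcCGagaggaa
T: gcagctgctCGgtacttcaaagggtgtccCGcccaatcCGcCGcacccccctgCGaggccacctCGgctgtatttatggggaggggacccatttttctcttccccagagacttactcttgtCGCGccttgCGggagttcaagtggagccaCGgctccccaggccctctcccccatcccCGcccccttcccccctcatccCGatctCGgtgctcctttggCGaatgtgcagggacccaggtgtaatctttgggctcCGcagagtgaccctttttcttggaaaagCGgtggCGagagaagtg
Lhx1: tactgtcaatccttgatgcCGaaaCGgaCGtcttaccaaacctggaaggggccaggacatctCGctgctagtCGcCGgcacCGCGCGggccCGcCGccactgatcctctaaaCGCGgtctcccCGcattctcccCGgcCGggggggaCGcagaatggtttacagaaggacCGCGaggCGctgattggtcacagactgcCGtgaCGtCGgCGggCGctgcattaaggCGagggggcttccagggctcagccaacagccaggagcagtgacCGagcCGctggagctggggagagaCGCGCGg

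Of the 9 genes 8 had a window among the 32851 in the RefSeq table, where the median window held 7 CpGs (quartiles 3 and 20). *Lhx1* had 31 CpGs and *Gsc* 25, both over the upper quartile, and both genes were nearly at 0. *T* had 17, *Evx1* 12 and *Eomes* 10, and *Cer1* and *Mesp1* had 6 and 4. The window of *Apela*, the gene with the highest level, held 7 CpGs, the median of the table. The T-box motif TCACACCT on either strand occurred in *Mesp1* and in 1.28% of all windows, and the TCF/LEF motif CTTTGAT in *Mesp1* and in 3.73% of all windows. The FOXH1 motif AATCCACA was in none of the 8 windows and in 0.855% of all, and TATAAA was in *Gsc* and in 13.6% of all. The motifs do not overlap each other, and such matches describe the letters of the window and no binding.

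**Figure D2:**
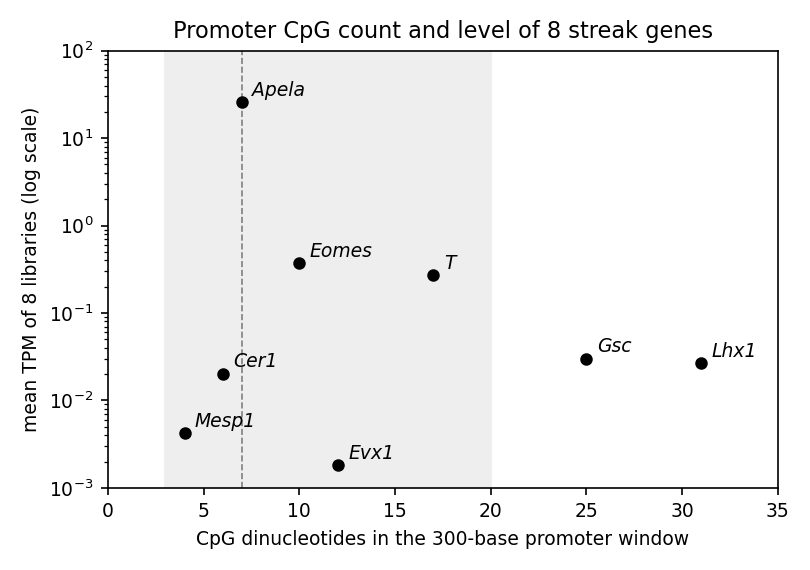
CpG dinucleotides in the promoter window against the mean level over 8 libraries in TPM (log axis) for the 8 streak genes with a window. The dashed line marks the median of all windows (7) and the grey band its quartiles (3 to 20). *Apela* sits on the median, and *Gsc* (25) and *Lhx1* (31) lie to the right of the band near the bottom.

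Genotype was compared first, the question being whether the streak genes differ between *Tet1* KO and WT EpiLCs. 3 of the 9 genes passed the filter on low counts (*T*, *Eomes* and *Apela*), and all 3 had higher means in KO than in WT lines, as had 49.0% of all genes tested, by 2.62-, 2.18- and 1.53-fold in the edgeR fit. *T* passed the filter mainly through its KO lines, with 11 to 21 counts each, against 5, 16, 3 and 5 in WT7, WT12, WT17 and WT34. Its direction and its p are therefore not independent of the filter. None passed the adjusted threshold of 0.05, beside 0.0405% of the 17272 genes tested (edgeR quasi-likelihood test, 7 genes). At an unadjusted p under 0.05 *T* was alone among the 3, beside 5.62% of all genes tested, and DESeq2 called none of them, beside 0.608% of all genes, with *T* left without an adjusted p. In bulk libraries fewer cells that use a gene and less RNA per cell cannot be told apart.

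*T* was at 0.890 and 1.05 CPM in KO1 and KO9, at 0.571 and 1.39 CPM in KO15 and KO25, at 0.275 and 0.141 CPM in WT7 and WT17, and at 0.667 and 0.354 CPM in WT12 and WT34. In CPM the groups overlapped at KO15 and WT12. The log2 fold change was 1.39 (SE 0.49, adjusted p = 0.777, edgeR), from 70 counts in KO and 29 counts in WT lines. In TPM the same libraries, in the same order, stood at 0.361, 0.527, 0.220 and 0.625 against 0.162, 0.0331, 0.154 and 0.0756, and all KO lines were higher than all WT lines. Such a separation was found in 1.60% of the genes tested in TPM and in 2.39% in CPM.

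The transcript length that links count and TPM of *T* differed between the libraries. The length implied by a count and its TPM was 1115 and 889 bases in KO1 and KO9, 1166 and 1005 bases in KO15 and KO25, and 744 bases in WT7, but 2029 bases in WT17 and 2043 and 2061 bases in WT12 and WT34. *T* (chr17:8434423-8442496, plus strand) has 3 annotated transcripts of 681 to 2046 bases. WT12, WT17 and WT34 lay near the longest of them and the other 5 libraries between the shortest and the longest, all on 3 to 21 counts. The implied length was scaled on 432 genes with 1 transcript, where it ran from 0.932 to 1.08 times the annotated length between the 10th and 90th percentile.

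**Figure D3:**
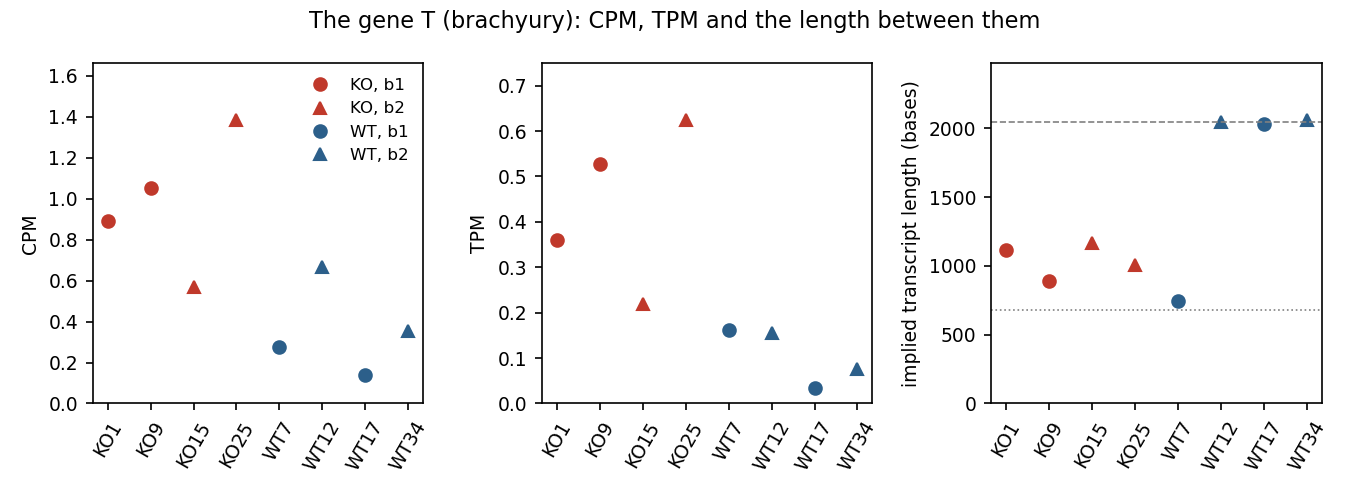
*T* in each library as CPM, as TPM and as the transcript length that the count and TPM together imply, with KO lines in red, WT lines in blue, b1 as circles and b2 as triangles. Dashed and dotted lines mark the longest and shortest annotated transcript (2046 and 681 bases). KO15 and WT12 change order between CPM (0.571 and 0.667) and TPM (0.220 and 0.154).

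*Eomes* was at 2.34 and 2.06 CPM in KO1 and KO9, at 5.87 and 5.91 CPM in KO15 and KO25, at 1.26 and 0.706 CPM in WT7 and WT17, and at 2.67 and 2.76 CPM in WT12 and WT34. Over all 8 libraries the groups overlapped, with the b2 WT lines above the b1 KO lines, and within each suffix both KO lines lay above both WT lines, as in 6.51% of the genes tested. The KO to WT ratio of mean CPM was 2.23 in b1 and 2.17 in b2. The log2 fold change was 1.12 (SE 0.51, adjusted p = 0.907, edgeR). With the suffix as a block it was 1.14 with an SE of 0.22 (adjusted p = 0.100, edgeR), and that fit called none of the 3, beside 0.162% of the genes tested. With the block and no filter on low counts, a fit chosen after the data had been seen, *Eomes* and *Apela* passed (adjusted p = 0.00291 and 1.15e-07, edgeR), beside 2.55% of 35073 genes. The antisense gene *Gm33460* overlaps *Eomes* (chr9:118478212-118486132, plus strand) and had 1 to 4 counts per library.

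*Apela* was at 36.4 and 42.0 CPM in KO1 and KO9, at 56.7 and 67.4 CPM in KO15 and KO25, at 26.4 and 20.8 CPM in WT7 and WT17, and at 26.9 and 58.3 CPM in WT12 and WT34. WT34 lay among the KO lines, and the other 3 WT lines lay below all KO lines. The log2 fold change was 0.62 (SE 0.32, adjusted p = 0.956, edgeR), and 1.03 without WT34 (SE 0.22, adjusted p = 0.454). For *Gm45886* it was 0.33 (SE 0.42, adjusted p = 0.998). Of the genes that did not pass the filter, *Mixl1* had 53 counts in KO and 28 in WT lines, and without a filter its log2 fold change was 0.97 (SE 0.53, adjusted p = 0.808, edgeR). *Cer1* had 5 counts in each group and *Lhx1* 7 in KO and 8 in WT lines.

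The suffix was compared next, as b2 against b1 with genotype in the model. *Eomes* and *Apela* were higher in b2 and *T* did not pass, so that 2 of the 3 genes tested were called, beside 24.6% of all genes (13.7% higher and 11.0% lower in b2). Every b2 library had more *Eomes* than every b1 library, with 2.67 to 5.91 CPM against 0.706 to 2.34 CPM. That was so for 13.9% of the genes tested. The log2 difference was 1.44 (SE 0.22, adjusted p = 0.00196, edgeR), and *Eomes* passed without any 1 of the 8 libraries (log2 difference 1.28 to 1.58). In WT lines alone it did not pass, at 1.45 (adjusted p = 0.0991, edgeR). The b2 to b1 ratio of mean CPM was 2.68 in KO and 2.76 in WT lines.

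*Apela* was 0.75 log2 units higher in b2 (SE 0.21, adjusted p = 0.0275, edgeR), and within each genotype both b2 libraries lay above both b1 libraries, as in 18.4% of the genes tested. Its call was less firm than that of *Eomes*: it was lost without KO1, KO9, KO25, WT7 or WT17 (adjusted p up to 0.0909, log2 difference 0.48 to 0.91 over the 8 libraries left out in turn), and 0.48, the lowest, was the difference without WT34. *Gm45886* was 0.95 log2 units higher in b2 (SE 0.28, adjusted p = 0.0331, edgeR). *T* differed by 0.51 (SE 0.46, adjusted p = 0.457), and its mean CPM was 0.972 in b1 and 0.978 in b2 KO lines, against 0.208 and 0.511 in WT lines. *Mixl1* had 41 counts in b1 and 40 in b2.

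Whether the KO to WT difference itself depended on the suffix was tested as an interaction. *T* had a log2 difference between both effects of -1.36 (SE 0.90, adjusted p = 1.00, edgeR). Its KO to WT ratio of mean CPM was 4.67 in b1 and 1.92 in b2. For *Eomes* and *Apela* the log2 difference between both effects was -0.05 (SE 0.44) and -0.18 (SE 0.43). None of the 17272 genes passed after adjustment, whereas 227 (1.31%) had an unadjusted p under 0.05 and DESeq2 called 2.

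**Figure D4:**
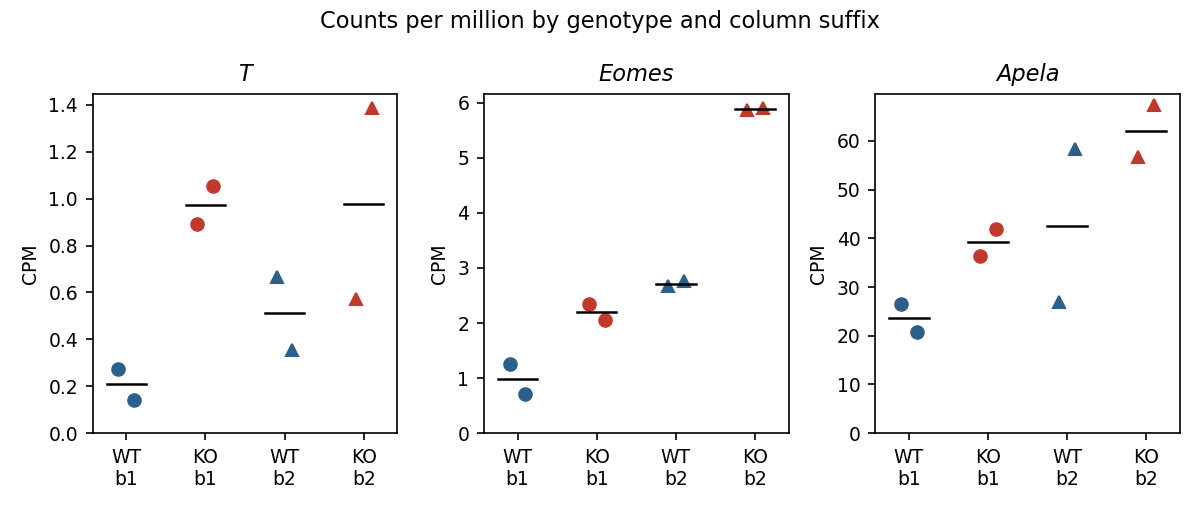
*T*, *Eomes* and *Apela* in CPM by genotype and column suffix, 2 lines per set, with KO lines in red, WT lines in blue, b1 as circles, b2 as triangles and the mean of each set as a line. *Eomes* takes 4 steps, from WT b1 and KO b1 to WT b2 and KO b2, *Apela* overlaps at WT34 (58.3 CPM), and *T* is split by genotype in b1 (4.67-fold) more than in b2 (1.92-fold).

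Signals and other genes around the streak were then set beside the members. The 65 related genes were listed with earlier results of these data known, and 47 of them were tested. In KO against WT none passed (edgeR), and 2 had an unadjusted p under 0.05, beside 5.62% of all genes tested, *Sfrp1*, a Wnt inhibitor, with a log2 fold change of 0.79 and *Nanog*, a pluripotency factor, with -0.55. *Nodal* and *Sfrp1* passed with the suffix as a block, beside 0.162% of all genes tested. In b2 against b1 14 were higher, 2 were lower and 31 did not pass, which is 29.8% higher and 4.26% lower, beside 13.7% and 11.0% of all genes.

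Of 8 tested signals 5 were higher in b2 and 1 was lower. *Nodal*, the ligand upstream of *Eomes* and *Mixl1*, was at 1.45 and 1.21 TPM in KO1 and KO9, at 5.17 and 4.55 TPM in KO15 and KO25, at 2.40 and 2.19 TPM in WT7 and WT17, and at 10.6 and 7.80 TPM in WT12 and WT34. It was 1.94 log2 units higher in b2 (SE 0.12, edgeR adjusted p = 2.96e-05), and within each suffix both WT lines lay above both KO lines, as in 5.63% of the genes tested, the reverse of *Eomes*. Its KO against WT log2 fold change was -0.88 (adjusted p = 0.998, and 0.0326 with the suffix as a block, edgeR). *Tdgf1*, the Nodal co-receptor also called Cripto, was 2.10 log2 units higher in b2, and *Wnt8a* was 2.73 higher (adjusted p = 0.00318 and 0.000930, edgeR). *Wnt3*, *Wnt3a* and *Fgf8*, ligands that act at the streak itself, reached at most 0.163, 0.0263 and 0.491 TPM in any library and had too few counts to be tested.

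Of 5 tested inhibitors 2 were higher in b2. *Lefty1*, a Nodal antagonist induced by Nodal itself, was at 0.185 and 0 TPM in KO1 and KO9, at 1.69 and 0.221 TPM in KO15 and KO25, at 0.0603 and 0.173 TPM in WT7 and WT17, and at 10.6 and 4.44 TPM in WT12 and WT34. WT12 and WT34 were the highest libraries of *Lefty1*, *Nodal* and *Tdgf1*, whereas KO15 and KO25 were the highest of *Eomes*. *Lefty1* was 5.58 log2 units higher in b2 (SE 0.81, adjusted p = 0.00154, edgeR), and *Fst*, the activin-binding protein follistatin, 1.43 higher. The receptor of the *Apela* peptide, *Aplnr*, was listed at 0 in 6 of 8 libraries and at 0.314 TPM in KO9 and 0.278 TPM in WT12. *Apln*, the other ligand of that receptor, was at 0.258 to 0.867 TPM, far below *Apela*.

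Genes of the streak's derivatives were mostly under a mean of 1 TPM. Of 9 anterior streak and endoderm genes 6 were tested and none reached a mean of 1 TPM: *Foxa2*, a forkhead factor of the node and endoderm, was 1.83 log2 units higher in b2 and *Hhex* 0.75 lower, at means of 0.188 and 0.961 TPM. Of 10 nascent mesoderm genes 7 were tested, and *Snai1*, the repressor of E-cadherin at the streak, and *Dll1*, a Notch ligand, were higher in b2 by 1.97 and 1.69 log2 units, at means of 1.06 and 11.6 TPM, the 2 in that list over 1 TPM. Of 10 posterior genes and Wnt targets 5 were tested, and *Nkx1-2* was higher in b2 by 3.77 log2 units. *Sp5*, a direct Wnt target, had a mean of 0.00845 TPM and *Axin2*, another, 2.00 TPM.

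The cofactors and repressors of the streak programme were present at far higher levels, with all 15 listed genes at a mean of at least 1 TPM. *Foxh1* was at 32.2 to 41.4 TPM, *Tcf7l1*, a TCF factor that represses Wnt targets, at 21.4 to 29.7 TPM, and the Polycomb subunit *Ezh2* at 90.2 to 108 TPM. *Lef1*, *Sall4* and *Zic2* were higher in b2 by 1.02, 0.86 and 0.79 log2 units (adjusted p = 0.0124, 3.47e-05 and 0.000326, edgeR), and 12 of the 15 did not pass in that comparison. None of the 15 passed in KO against WT.

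**Figure D5:**
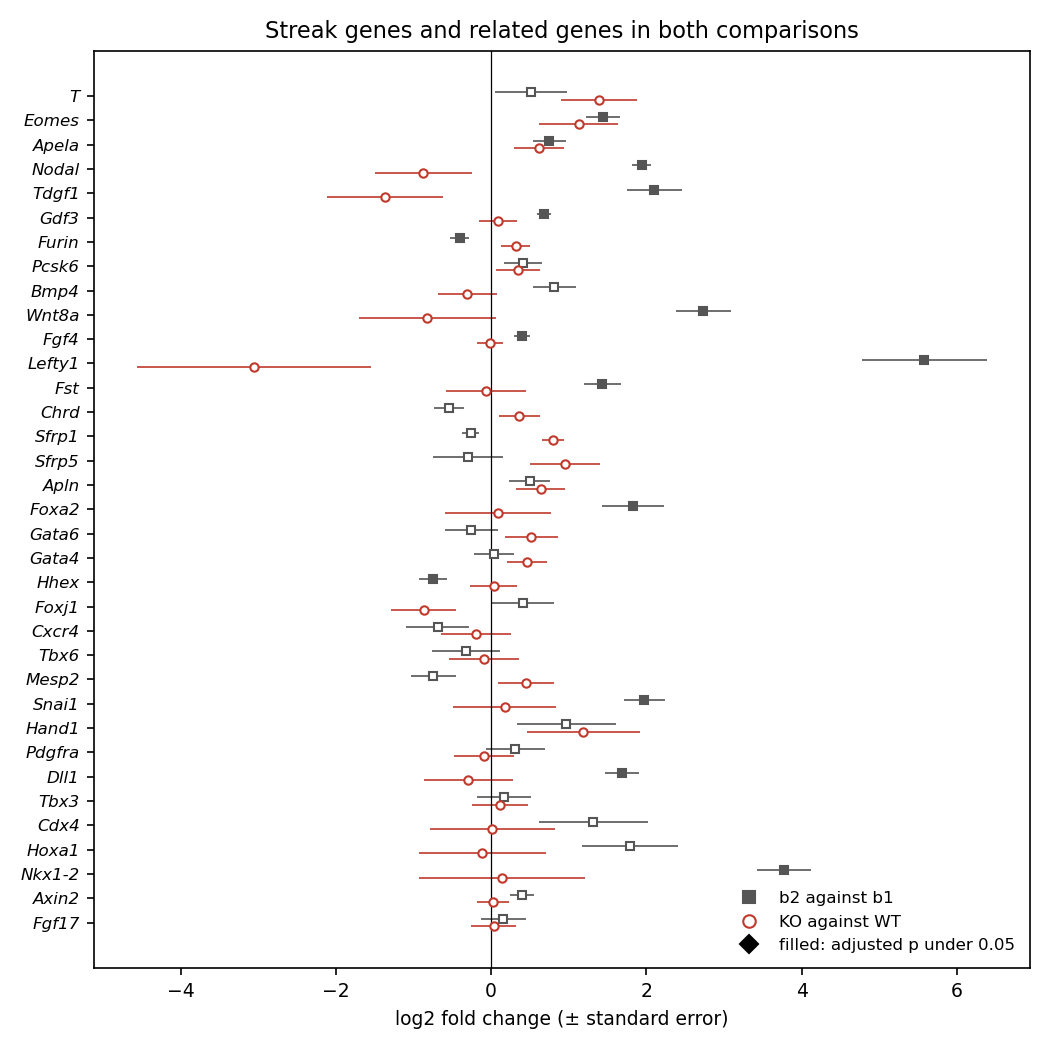
Log2 fold change with its standard error for the tested streak genes (top 3) and the tested related genes, as b2 against b1 (grey squares) and KO against WT (red circles). Filled symbols passed an adjusted p of 0.05 in edgeR. *Lefty1* lies farthest out in both comparisons, at 5.58 for b2 and -3.06 for KO, and no red symbol is filled.

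Some markers of the EpiLC state and of other cells also differed by suffix, and their part in the differences of *Eomes* and *Apela* was not tested. *Fgf5*, *Pou3f1* and *Dnmt3a*, 3 of 7 EpiLC markers, were higher in b2 by 0.64, 0.89 and 0.56 log2 units, and *Klf2*, 1 of 7 naive markers, by 1.15. Of all genes tested 13.7% were called higher and 11.0% lower. Log2 differences were positive for 6 of 7 EpiLC and 5 of 7 naive markers. They were negative, without passing, for *Utf1* (-0.25), *Esrrb* (-0.73) and *Tfcp2l1* (-0.48). The 8 visceral endoderm markers summed to 1.43 to 2.24 TPM in b1 and 1.07 to 1.48 TPM in b2, with *Apob* higher and *Hhex* lower in b2. *Hhex*, also listed with the anterior streak and endoderm genes, made up most of this sum, at means of 1.23 TPM in b1 and 0.687 in b2. The 7 feeder markers summed to 19.9 to 29.9 TPM in b1 and 5.45 to 17.3 TPM in b2. Most of that sum was *Thy1*, at a mean of 21.3 TPM in b1 and 10.0 in b2 and 0.95 log2 units lower in b2. The other tested feeder markers did not pass, with log2 differences of 1.17 for *Col1a2*, 0.48 for *Dcn* and -0.04 for *Col1a1*. Of 7 primitive endoderm markers none passed in b2 against b1, and *Col4a1* was higher in KO lines (log2 fold change 1.06, adjusted p = 0.00699, edgeR).

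Genes whose profile over the 8 libraries was near that of *Eomes* (root mean square difference of mean-centred log2 CPM) were *Cbx8*, *Smyd1*, *Aebp1* and *Gxylt2*, at 0.396 to 0.436, against a root mean square of 0.916 for the *Eomes* profile itself. Nearest to *Apela* were *Ankrd44*, *Inhbe*, *Icosl*, *Hic1* and *Tspan9*, at 0.218 to 0.238, against 0.579 for *Apela*. They were picked from all tested genes at a mean of at least 1 CPM, and nearness over 8 libraries is a description.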

How the data were processed

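RNA-seq of EpiLCs was taken from 8 stranded single-end mRNA libraries. Per the submitters' processing notes and the study's methods, reads were trimmed with Trim Galore 0.6.4, quantified with Salmon 0.14.1 and summarized per gene in R 4.0.2 on mm10. The authors deposited estimated counts, and the authors deposited TPM of the same quantification in a separate table. Both hold 54281 genes, 205 of them without a symbol. No column was left out. The study describes littermate pairs, but the labels do not link KO to WT lines.

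Rounding to whole numbers moved 27.8% of the estimated counts, none by over 0.5. Totals ran from 13916400 to 23680640 per library, so 1 count is far less than 1 CPM. After filterByExpr, which left 17272 genes, and TMM scaling, the quasi-likelihood test of edgeR 4.0.16 (R 4.3.3) was applied to KO against WT (genotype only), b2 against b1 (genotype in the model) and their interaction. P-values were adjusted by Benjamini-Hochberg over the whole table of tested genes. Genes under an adjusted p of 0.05 are called. Levels between genes were compared in log2(TPM + 0.01) by exact sign-flip permutation over libraries, for neighbours in the order of mean TPM of the same libraries. Poisson intervals cover counting error only. Alternatives used DESeq2 1.42.0 and limma 3.58.1. The scripts were tested on simulated data.

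The 9 genes and the gene lists were chosen with earlier results of these data known. Named besides them are *Tet1*, up to 4 genes of each list (those called with the smallest p, otherwise the highest), and the 5 genes nearest in profile to *Apela* and to *Eomes*, 1 of which is not reported here. *Gm45886*, *Gm33460*, *Nanog* and further list genes, such as *Wnt3*, *Fgf8*, *Lefty1* and *Sp5*, were named outside this rule or for their role, with values known. Gene positions are from GENCODE M21, which holds 53544 of these gene IDs in the same version, and promoter sequences are from RefSeq (GRCm38.p6).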

Additional observations from a re-analysis of the deposited data

Results flagged for a closer look

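*Apela* in WT34 stood apart from the other 3 WT lines by the gap to its nearest neighbour relative to the range of the group, at 58.3 CPM and 35.3 TPM against at most 26.9 CPM and 17.5 TPM. It was the highest WT library on both scales. These are 2 of 16 groups examined, on 2 scales of the same gene, and chance alone gives about 1 in 20.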

How the results depend on the processing

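No paired analysis was possible because the KO and WT lines share no replicate number. In KO against WT 7 genes were called, against 105 with DESeq2, 2 with limma on log2(TPM + 1), 3 on log2(TPM + 0.1), 4 on the latter with no filter, 28 with the suffix as a block, 19 in b1 libraries alone, 3 above an absolute log2 fold change of 1.5, and 895 with the block and no filter, which was chosen after seeing the data. In that last fit 2 of the 9 genes were called (*Eomes* and *Apela*) and in all others 0. The higher means of *T*, *Eomes* and *Apela* in KO lines held under every alternative that gave them a value. In b2 against b1 4253 genes were called, against 1587, 1624 and 887 in the same 3 limma fits, 450 in WT and 1346 in KO lines alone, and 2655 (without KO9) to 4807 (without WT12) with 1 library left out, 2763 without WT7. Scaling by library size alone gave 1933 higher and 2511 lower genes in place of 2359 and 1894. Of the 9 genes 2 were called, against 0 in each limma fit and in WT lines alone, 1 with no genotype term, and 1 to 2 with 1 library left out. Of the 9 genes the 2 limma fits with a filter tested only *Apela*, in both comparisons, so *Eomes* could not be called there. The log2 difference of *T*, 0.51, reversed to -0.0486 in KO lines alone. The interaction called 0 genes, 168 with no filter and 2 with DESeq2. The causes were not tested. The exact test of neighbouring levels passed for 2 pairs with all 8 libraries. With 1 library left out it passed for 0 to 3 pairs, 3 without WT17 and 0 without each of the other 7. Fewer than 3 pairs can never pass with 7 libraries, so the 0s follow from the test and do not show a dependence on 1 library. The log2 ratio of *Apela* to the other 8 genes was 3.36 in CPM in place of 5.07.

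Counts limit 6 of the 9 genes, which held 0 to 23 counts per library. *T* rests on 99 counts in all.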
